A study of Danio rerio with 36 samples.

Results

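The 27 genes described here were far higher in zebrafish eye cells sorted as Müller glia than in the other cells at 72 and 120hpf. At 96 and 192hpf these 27, of 31540 genes measured, had a mean below the other cells. They were chosen by these values. Means were taken on the log2 scale of CPM, a gene's reads in each 1000000 of the library. The mean of cells sorted as Müller glia (MG) minus that of the control (C) was at least 3 at 72 and 120hpf. It was below 0 at 96 and 192hpf, and the mean of MG was at least 3 at 72 and 120hpf. The values at these 4 stages are therefore a description without a test, and 48 and 60hpf are the stages that the choice did not use.

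Müller glia are the radial glia of the retina. They span it from the outer to the inner limiting membrane, send side branches into the plexiform layers, take up transmitter and buffer potassium and water for the neurons, and in zebrafish they can return to the cell cycle and replace lost neurons. They arise late in retinal development and shape their apical processes, endfeet and side branches over the following days, and the study sorted them across this time to ask which genes are used at which step.

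Eyes of wild-type zebrafish carrying Tg(GFAP:GFP), in which a gfap promoter drives GFP in glia, were pooled and dissociated at 48, 60, 72, 96, 120 and 192 hours post fertilization (hpf), and GFP cells (MG) were sorted from non-GFP cells (C). Embryos had been kept in phenylthiourea to prevent pigmentation, and both fractions carry the transgene. The 12 groups have 3 replicates each, with RNA amplified before the libraries were made. Since whole eyes were dissociated, both fractions can hold cells from outside the neural retina, and in sorted bulk RNA fewer cells of a type and less RNA per cell cannot be told apart. GFP can also outlast or precede a glial identity, so that MG means GFP cells throughout.

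The replicate columns of a group did not vary as separate libraries would. In 9 groups the columns differed by no more than the sampling of reads, with a median chi-square ratio over genes from 0.0679 to 1.01, where 1 is the value for independent reads of 1 library. In these groups replicates 1 and 2 were at 0.0679 to 0.168, more alike than independent reads would be. Pairs with replicate 3 were at 0.876 to 1.01. A test over these columns therefore sees too small a spread. The ratio was 0.267 to 1.35 in 60hpf MG and 0.0855 to 0.95 between replicates 1 and 2 of 48hpf. These columns are joined here into 1 library per fraction and stage, and each column is given beside it. The intervals below cover counting error only, and a p-value over columns compares libraries and not conditions. Replicate 3 of 48hpf stood apart from replicates 1 and 2 in both fractions (ratios from 4.92 to 155.2). The MG column labelled replicate 3 matched 72hpf MG (0.861, 0.939 and 0.944) and the C column matched 48hpf MG (0.680 and 0.991), so both were left out of the 48hpf comparison and are given separately. The columns held 1311849 to 8889892 reads on genes, except 60hpf MG with 63463 to 90846. A level under 3 reads in the less deep library of its stage was set to that floor, which is 2.28, 38.0, 0.767, 1.23, 0.969 and 0.693 CPM at 48, 60, 72, 96, 120 and 192hpf, and a fold against a floor is written as a bound.

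The labels of the fractions were checked with 18 identifiers of Müller glia markers. Their summed CPM was higher in MG than in C at every stage, but the excess was uneven. It was 4496 CPM in MG against 707 CPM in C at 72hpf and 3650 CPM against 1859 CPM at 120hpf, while it was 28289 CPM against 3265 CPM at 96hpf and 22427 CPM against 5403 CPM at 192hpf. At 120hpf as many of them were at least 2-fold lower in MG as higher (6 and 6 of 16 above the floor), against 11 higher and 3 lower of 16 at 96hpf. At 48hpf 1 was higher and 1 lower of 15. Single identifiers carried some of the sums. At 48hpf FABP7 (ENSDARG00000007697) made up 2870 of 3605 CPM in MG and 1209 of 2049 CPM in C. At 120hpf GLUL (ENSDARG00000099776) made up 3161 of 3650 CPM in MG and 1584.5 of 1859 CPM in C.

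Of the defining markers, rlbp1a, a retinaldehyde-binding protein of Müller glia, was at 37.6 and 32.2 CPM in MG at 72 and 120hpf and at 1174 and 746 CPM at 96 and 192hpf. In C it did not exceed 7.34 CPM at 72, 96 and 120hpf and was at 52.0 CPM at 192hpf. GFAP, the intermediate filament protein whose promoter drives the GFP, was at 2.31, 17.3 and 10.2 CPM in MG at 72, 96 and 192hpf, and at 120hpf it was lower in MG (0.731 CPM) than in C (2.48 CPM). AQP4, a water channel of glial endfeet, was at 8.63, 49.0, 21.0 and 46.9 CPM in MG at 72, 96, 120 and 192hpf and at most 1.83 CPM in C. Others of the list differed. SLC1A3 (ENSDARG00000104431) was lower in MG at 72, 96, 120 and 192hpf (0.902 against 9.83 CPM at 72hpf), and SOX2 at 72, 96 and 120hpf. SLC1A2 (ENSDARG00000102453) was at 1241 CPM in MG against 24.4 CPM in C at 72hpf. At 72hpf 8 of 14 identifiers above the floor were at least 2-fold higher in MG and 3 lower.

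The libraries also differed in the markers of other cells along the same stages. Photoreceptor markers (24 identifiers) summed to 8261 and 4014 CPM in MG at 72 and 120hpf and to 264753 and 146452 CPM at 96 and 192hpf. In C they summed to 773, 14928, 3992 and 22728 CPM at 72, 96, 120 and 192hpf. Of those above the floor, 12 of 16 at 72hpf and 15 of 17 at 96 and 192hpf were at least 2-fold higher in MG. At these stages 3, 1 and 0 were lower, and at 120hpf 2 of 17 were higher and 3 lower. Over all genes above the floor 29.1%, 9.07%, 25.3% and 9.4% were higher at 72, 96, 120 and 192hpf. Ganglion cell markers (13 identifiers) summed to 3345 and 3205 CPM in MG at 72 and 120hpf and to 444 and 670.4 CPM at 96 and 192hpf, but 1 identifier of RBPMS2 (ENSDARG00000079578) made up 2767 and 2800 CPM of the former, and without it the sums were 578, 323, 406 and 481 CPM at 72, 96, 120 and 192hpf. Pigment cell markers (18 identifiers) summed to 370 and 1603 CPM in MG at 72 and 120hpf and to 87.5 and 213 CPM at 96 and 192hpf. OCA2 alone made up 350 and 1312 CPM of the sums at 72 and 120hpf. In C the list was at 528, 258, 75.8 and 4024 CPM at 72, 96, 120 and 192hpf, so that MG was above C at 120hpf only. In MG, both the 72 and the 120hpf level lay below both the 96 and the 192hpf level for 16 of 18 Müller glia identifiers, 17 of 24 photoreceptor identifiers and 4 of 13 ganglion cell identifiers, and above both for 0, 0 and 4. Most glial and photoreceptor identifiers thus divided the MG libraries by the same pairs of stages as the choice of the 27 genes does. This was not particular to them. Of 20 immediate early and stress identifiers 14 lay below both, while of 40 adhesion and matrix identifiers 7 did and 17 lay above both. Over the 18978 genes that reached 1 CPM in 3 columns or more, the median change in MG (72 and 120hpf minus 96 and 192hpf) was log2 -1.01. The share of all genes in this order was not counted. The part of these differences in the pattern of the 27 genes was not tested, and library and stage cannot be told apart with 1 library per fraction and stage.

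**Figure D1:**
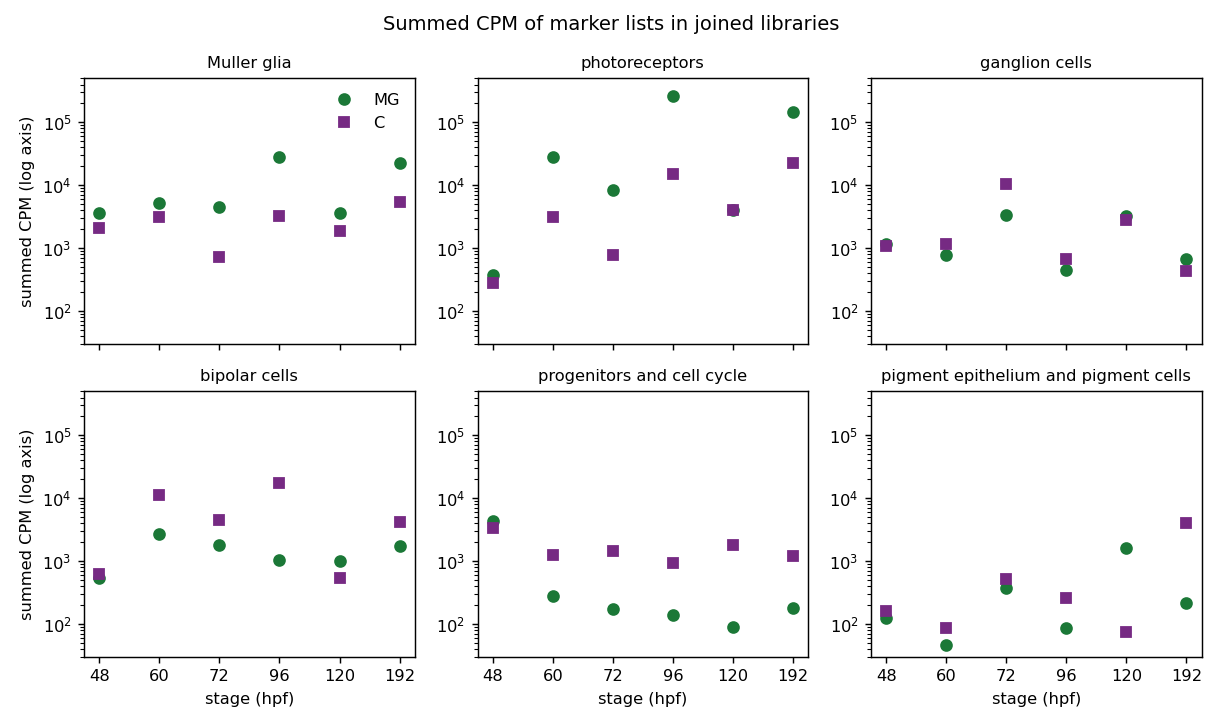
Summed CPM (log axis) of 6 lists of cell type markers by stage in hpf, in the joined libraries of MG (green circles) and C (purple squares), with 1 library per point. Müller glia markers and photoreceptor markers are lower in MG at 72 and 120hpf than at 96 and 192hpf, and the higher sum of ganglion cell markers is mostly 1 identifier of RBPMS2.

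There were 860 genes on the high side of the threshold at 72hpf and 872 at 120hpf, and 156 at both. Of these 156, 92 were above C in MG at 96 and 192hpf as well, 37 were split or equal there, and the 27 (17.3%) were below C at both, as were 37.9% of all 31540 genes. In the joined libraries, all 27 were at least 2-fold higher in MG at 72hpf, where 29.1% of 15184 genes above the floor were (28.9% were lower), and all 27 at 120hpf, where 25.3% of 15006 genes were (40.2% were lower), as the choice requires. At 96hpf 8 were at least 2-fold lower in MG, 12 were within 2-fold, 4 (bicdl2l, fxyd7, creb3l3b and DOC2A) were under the floor in MG alone with a bound under 2-fold, and 3 were under the floor in both fractions (34.6% of 16005 genes were lower and 9.07% higher). At 192hpf 10 were lower, 16 within 2-fold and 1 (si:ch211-284o19.8) had such a bound (27.8% of 17746 genes were lower and 9.4% higher). At 96 or 192hpf or both, 14 of the 27 were at least 2-fold lower in MG. The counting interval of MG over C held equality for 14 genes at 96hpf and 14 at 192hpf, and for 8 of them at both. With levels under the floor set to it, 4 genes were at least 2-fold lower at both of these stages, and none at least 4-fold.

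**Figure D2:**
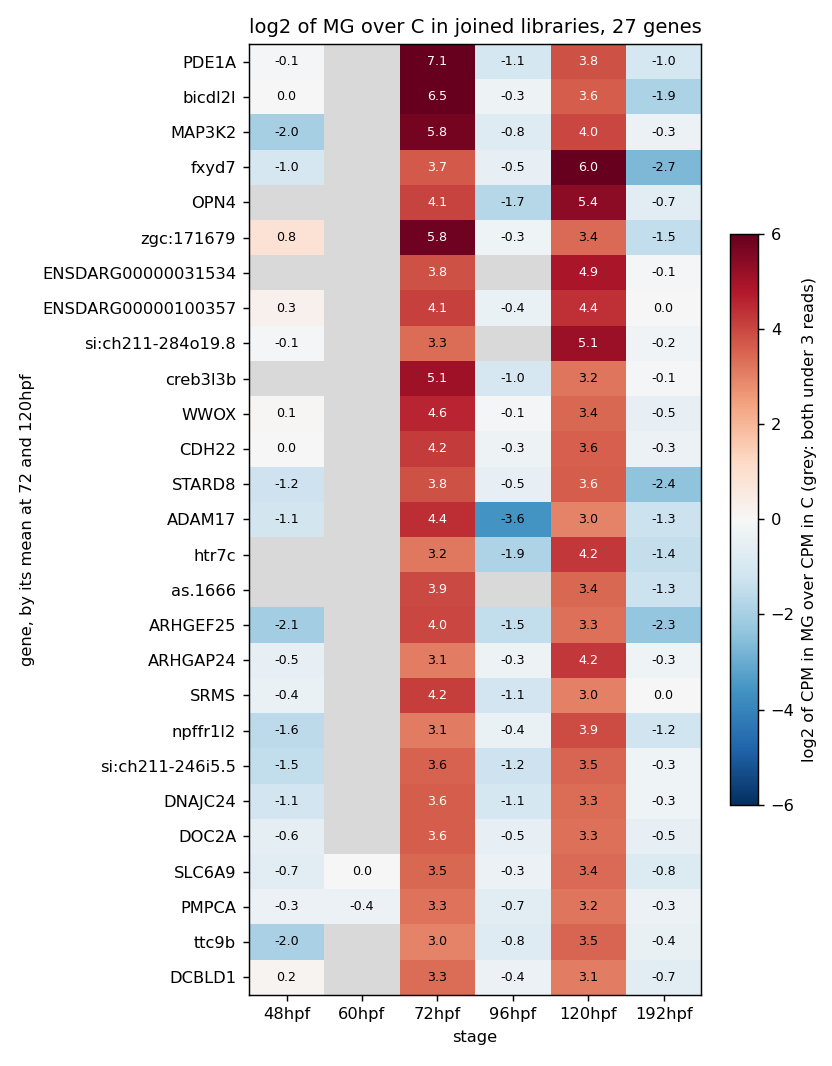
Log2 of MG over C in the joined libraries for each of the 27 genes (rows, by their mean at 72 and 120hpf) at each stage (columns), with 48hpf from replicates 1 and 2 and grey where both fractions lay under the floor of 3 reads. All 27 are high at 72 and 120hpf, 8 of the 24 with a value at 96hpf and 10 of 27 at 192hpf are at least 2-fold lower, and at 60hpf 2 genes have a value. Where 1 fraction lay under the floor the value is a bound.

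The most abundant of the 27 was SLC6A9 (ENSDARG00000018534), glycine transporter 1, which clears glycine from the extracellular space and in the mammalian retina marks glycinergic amacrine cells. At 72hpf it was at 1140.3, 1135 and 1138 CPM in the MG columns and 106, 103 and 104 CPM in the C columns, and at 120hpf at 2046, 2044 and 2007 CPM in the MG columns and 198, 197 and 181 CPM in the C columns. The columns of the fractions lay far apart, and MG was 10.9-fold and 10.6-fold higher. At 96hpf it was at 149.7, 151 and 149 CPM in the MG columns and 195, 193 and 183 CPM in the C columns, and at 192hpf at 146, 158 and 149 CPM in the MG columns and 264, 263 and 267 CPM in the C columns. Scaled to total reads, every MG column lay below every C column, by 1.27-fold and 1.75-fold, and the counting intervals of the log2 difference (-0.51 to -0.18 and -0.95 to -0.68) did not reach 0. With TMM scaling the order at 96hpf turned (0.11 on the log2 scale). C changed less, from 104 to 265 CPM in the joined libraries, and most of the alternation lay in MG. The gene is also on the list of amacrine and horizontal cell markers. The 11 other identifiers of that list summed to 1248 CPM in MG against 945 CPM in C at 72hpf and to 433 CPM against 1136 CPM at 120hpf. TFAP2A made up 1009 and 440 CPM of the former and 145 and 712 CPM of the latter. At 72hpf 1 of 11 above the floor (TFAP2A) was at least 2-fold higher in MG and 5 were lower. At 120hpf 1 of 9 was higher (GAD2, 140 CPM against 29.3 CPM) and 6 were lower.

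The other glycine carrier, SLC6A5, the neuronal glycine transporter, did not share the alternation in full. It had 15.4 CPM in MG at 72hpf with no read in C (at least 20.1-fold higher in MG) and was under the floor in both fractions at 120hpf.

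A smaller carrier subunit, fxyd7 (ENSDARG00000097110), belongs to the FXYD proteins, which tune the sodium-potassium pump. It was at 60.7, 61.4 and 63.7 CPM in MG at 120hpf and at 0.313, 0.317 and 0 CPM in C, which was under the floor, so that MG was at least 63.9-fold higher. At 72hpf it had 10.1, 10.7 and 8.55 CPM in MG and 0.255, 0.255 and 1.29 CPM in C (at least 12.7-fold). At 192hpf the order was turned, with 0.469, 0.473 and 2.67 CPM in MG and 8.37, 8.05 and 7.24 CPM in C, and MG was 6.39-fold lower. Of the 26 genes above the floor in both fractions at 192hpf it had the largest deficit in MG. At 96hpf it was nearly undetected in MG (0, 0 and 0.404 CPM), where C held 1.76, 1.62 and 1.76 CPM. In the family, fxyd12 was also high in MG at 120hpf (56.1 CPM against 1.29 CPM), whereas fxyd6l, the most abundant, was lower in MG at each stage from 60 to 192hpf.

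**Figure D3:**
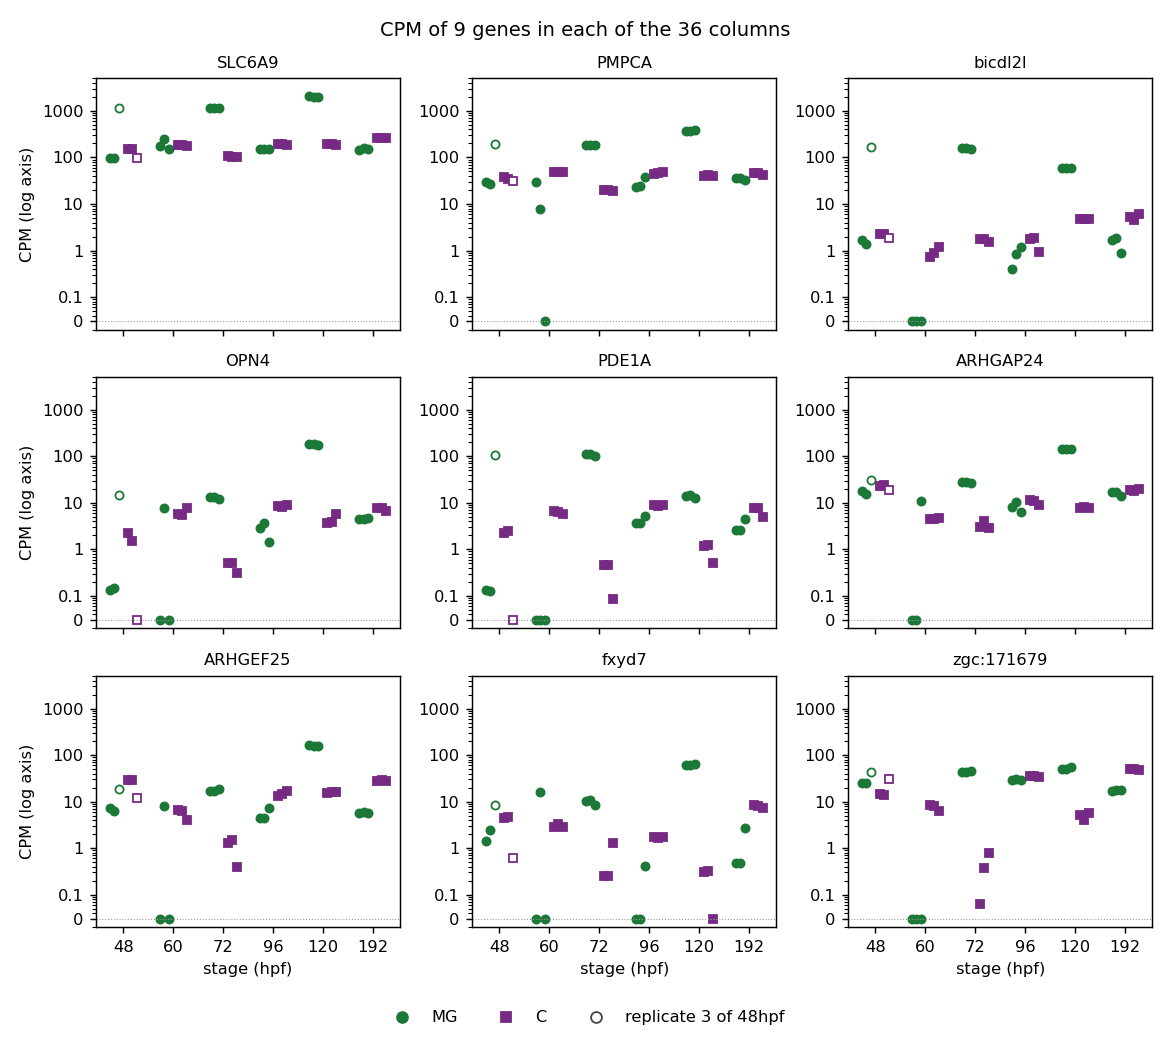
CPM (log axis, with 0 drawn on the dotted line) of 9 of the 27 genes in every column by stage in hpf, for MG (green circles) and C (purple squares), with replicate 3 of 48hpf as open symbols. The columns of a group lie together except in the shallow 60hpf MG and at low levels, MG lies above C at 72 and 120hpf, and the open MG symbol of 48hpf lies near the 72hpf MG columns.

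Among the receptors, OPN4 (ENSDARG00000022098) is a melanopsin, the light-sensitive opsin that in mammals makes a class of retinal ganglion cells respond to light. Its 120hpf level was 184, 186 and 174 CPM in the MG columns and 3.76, 3.8 and 5.85 CPM in the C columns, a 40.9-fold difference. At 72hpf it was at 13.4, 13.1 and 11.9 CPM in the MG columns and 0.509, 0.511 and 0.309 CPM in the C columns, with C under the floor (at least 16.7-fold). The MG level at 120hpf was thus more than an order of magnitude above that at 72hpf, and the rule did not ask for equal levels. At 96hpf MG held 2.87, 3.64 and 1.41 CPM and C 8.56, 8.17 and 9.17 CPM, 3.28-fold lower in MG, and at 192hpf MG held 4.46, 4.42 and 4.78 CPM and C 7.55, 7.7 and 6.57 CPM.

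The zebrafish genome carries several melanopsin genes, and they did not move as 1 group. A second identifier of the same symbol, ENSDARG00000007553, was higher in MG at 72hpf too (19.7 CPM against 8.95 CPM) but had the opposite order at the other 3 stages, with 164 CPM in MG and 67.4 CPM in C at 96hpf and 2.97 CPM in MG and 12.9 CPM in C at 120hpf, and 135 CPM in MG and 34.9 CPM in C at 192hpf. The gene opn4xb alternated as OPN4 did but with a smaller difference at 72hpf, its log2 of MG over C being 0.75, -4.49, 3.97 and -1.67 at 72, 96, 120 and 192hpf. Its highest levels were 290.0 CPM in MG at 120hpf and 199 CPM in C at 96hpf. The other identifiers, opn4xa and ENSDARG00000053929, had no read in these libraries.

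A pair of receptors for signalling molecules was found among the 27, htr7c (ENSDARG00000095272), a serotonin receptor of a class that raises cAMP in mammals, and npffr1l2 (ENSDARG00000062631), a receptor-like gene of the neuropeptide FF family. At 72hpf htr7c was at 43.5, 41.7 and 41.4 CPM in the MG columns and 4.89, 3.11 and 6.17 CPM in the C columns (8.94-fold), and at 120hpf at 34.4, 34.2 and 32.6 CPM in the MG columns and 0.808, 1.35 and 3.32 CPM in the C columns (18.9-fold). At 96 and 192hpf its MG columns held 6.23, 6.37 and 2.42 CPM and 6.81, 6.47 and 7.83 CPM, and its C columns 18.4, 17.8 and 18.1 CPM and 19.6, 17.5 and 19.4 CPM. With PDE1A, ARHGEF25 and ADAM17 it is 1 of the 4 genes at least 2-fold lower in MG at both (by 3.63-fold and 2.67-fold). The choice requires an exchange of MG and C in the mean log2 values of all 27 genes, by any margin at 96 and 192hpf. In htr7c every column of MG and C exchanged places. Of its kin, htr7a and HTR7 were at most 1.82 CPM and htr7b had no read. The level of npffr1l2 was lower, 9.33 and 19.3 CPM in the joined MG libraries and 1.07 and 1.27 CPM in C at 72 and 120hpf (8.68-fold and 15.2-fold). These receptor genes lie on the same chromosome in the reference annotation, with 28 genes between them, the fewest for any pair of the genes that could be placed.

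Among the signalling enzymes, PDE1A (ENSDARG00000060875), a calcium- and calmodulin-stimulated phosphodiesterase that breaks down cAMP and cGMP, was at 110.2, 110.1 and 102 CPM in the MG columns and 0.466, 0.467 and 0.0849 CPM in the C columns at 72hpf. C lay under the floor, and MG was at least 140.2-fold higher. At 120hpf it was lower in MG than at 72hpf and still 13.9-fold above C, at 14.3, 14.7 and 13 CPM in the MG columns and 1.2, 1.27 and 0.511 CPM in the C columns. At 96hpf it had 3.69, 3.71 and 5.25 CPM in MG and 8.98, 8.56 and 9.13 CPM in C, and at 192hpf 2.58, 2.6 and 4.54 CPM in MG and 7.68, 7.59 and 4.92 CPM in C (2.1-fold and 2.05-fold lower in MG). Its paralog PDE1C had the same order of the fractions with its largest excess at 120hpf, and its log2 of MG over C was 1.35, -3.49, 3.85 and -2.43 at 72, 96, 120 and 192hpf.

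MAP3K2 (ENSDARG00000062884), a kinase upstream of the JNK and ERK5 cascades, was at 95, 97 and 97.2 CPM in the MG columns and 1.53, 1.79 and 2.06 CPM in the C columns at 72hpf (53.9-fold) and at 65.1, 65.4 and 74.7 CPM in the MG columns and 4.07, 5.07 and 3.74 CPM in the C columns at 120hpf (15.9-fold). At 96 and 192hpf the joined MG libraries held 6.34 and 6.7 CPM and the C libraries 10.9 and 8.46 CPM, within 2-fold. Its paralog MAP3K3 was within 2-fold of C at 72, 96 and 120hpf and lower in MG at 192hpf (log2 -1.47). SRMS (ENSDARG00000077783), a Src-related kinase, was at 13.8 and 21.1 CPM in MG against 0.412 and 2.58 CPM in C at 72 and 120hpf, and is among the genes nearest to the threshold, with a mean MG minus C of -0.015 at 192hpf.

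Of the regulators of small GTPases, ARHGAP24 (ENSDARG00000100973), which turns off Rac in mammalian cells, was at 147, 144 and 144 CPM in the MG columns and 7.58, 8.05 and 7.69 CPM in the C columns at 120hpf (18.7-fold) and at 28.5, 27.8 and 27 CPM in the MG columns and 3.07, 4.09 and 2.83 CPM in the C columns at 72hpf (8.33-fold). At 96 and 192hpf its fractions were close, with 8.2, 10.5 and 6.3 CPM in MG and 11.4, 10.7 and 8.84 CPM in C at the former. At 192hpf it had 16.8, 16.8 and 13.9 CPM in MG and 18.9, 17.7 and 19.7 CPM in C, and the counting interval of the log2 difference held 0 at both stages.

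ARHGEF25 (ENSDARG00000100606), a guanine nucleotide exchange factor, was at 161, 159 and 156 CPM in the MG columns and 15.5, 16.5 and 16 CPM in the C columns at 120hpf (9.93-fold) and at 17, 16.7 and 18.4 CPM in the MG columns and 1.27, 1.53 and 0.386 CPM in the C columns at 72hpf (16.3-fold). At 192hpf the columns lay as clearly the other way, at 5.75, 5.91 and 5.56 CPM in MG and 28, 28.5 and 28.1 CPM in C, 4.92-fold lower in MG. It was 2.78-fold lower at 96hpf as well (4.51, 4.54 and 7.27 CPM against 13.4, 14.9 and 17.2 CPM). STARD8 (ENSDARG00000014003), a GTPase-activating protein with a lipid-binding domain, was at 31.4 and 31.7 CPM in MG against 2.25 and 2.58 CPM in C at 72 and 120hpf. At 192hpf it had 2.81, 3.08 and 1.6 CPM in MG and 13.2, 12.6 and 13.4 CPM in C (5.27-fold lower), while its relative STARD13 (ENSDARG00000098954) was higher in MG at 72hpf (2.81 CPM against 0.222 CPM, the latter under the floor) and lower in MG at 96, 120 and 192hpf (log2 -2.1, -2.18 and -2.75).

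Lists of adhesion and matrix genes (40 identifiers) and of morphogens and guidance genes (40 identifiers), none of which is among the 27, gave a median of 0.99 and 0.40 at 72hpf, -1.13 and -1.19 at 96hpf, 0.90 and 0.32 at 120hpf and -0.98 and -0.82 at 192hpf, as the log2 of MG over C. The median over all genes above the floor was -0.0039, -0.64, -0.47 and -0.36 at 72, 96, 120 and 192hpf. In the glial channel and transporter list (25 identifiers) the median stayed above 0 at these 4 stages, at 1.38, 0.66, 1.44 and 0.97.

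At the cell surface, CDH22 (ENSDARG00000098824), a classical cadherin of the second type, was at 39.5, 39.5 and 42.5 CPM in the MG columns and 2.67, 1.71 and 2.32 CPM in the C columns at 72hpf (18.1-fold) and at 27.8, 27.1 and 26.4 CPM in the MG columns and 1.7, 2.01 and 3.11 CPM in the C columns at 120hpf (12.1-fold). At 96 and 192hpf it was within 2-fold, at 5.64 and 6.87 CPM in MG against 7.05 and 8.65 CPM in C. ADAM17 (ENSDARG00000093093), a protease that sheds ligands of the EGF receptor and other surface proteins, was different in that C carried much of the alternation. It was at 1.02, 1.02 and 0.772 CPM in C at 72hpf, 55.7, 57.1 and 56.5 CPM (96hpf), 2.35, 2.54 and 5.79 CPM (120hpf) and 45.7, 46.4 and 41.8 CPM (192hpf). MG held 20.7, 20.6 and 19.7 CPM (72hpf), 3.69, 5.03 and 5.25 CPM (96hpf), 26.5, 27.3 and 28.7 CPM (120hpf) and 17.6, 18 and 18.7 CPM (192hpf). MG was 12.1-fold lower at 96hpf and 2.46-fold lower at 192hpf. A second ADAM17 identifier, ENSDARG00000043213, alternated with smaller differences (log2 1.03, -0.84, 2.2 and -0.94). DCBLD1 (ENSDARG00000015907), a transmembrane protein with a discoidin domain, was at 15 and 31.6 CPM in MG and 1.49 and 3.82 CPM in C at 72 and 120hpf. It was 10.04-fold and 8.28-fold higher in MG there and within 2-fold at 96 and 192hpf.

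Inside the cell, PMPCA (ENSDARG00000102607), a subunit of the mitochondrial peptidase that trims imported proteins, was the second most abundant of the 27. At 72hpf it was at 189, 189 and 189.7 CPM in the MG columns and 20.4, 20.1 and 18.6 CPM in the C columns (9.6-fold), and at 120hpf at 373, 370.3 and 384 CPM in the MG columns and 40.3, 42.7 and 40.4 CPM in the C columns (9.12-fold). At 96hpf it was at 23.5, 24.4 and 38 CPM in the MG columns and 44.9, 45.7 and 49.3 CPM in the C columns, and at 192hpf at 36.4, 36.8 and 32.6 CPM in the MG columns and 45.3, 45.4 and 42.5 CPM in the C columns. Its MG columns were below its C columns at both, by 1.62-fold and 1.26-fold, though with TMM scaling the order at 192hpf turned (0.03). The partner subunit PMPCB, which forms the enzyme with it, was lower in MG at 72hpf (2.68 CPM against 9.31 CPM) and higher at 120hpf (141 CPM against 40.3 CPM), so that the pair went together at 120hpf and not at 72hpf.

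The gene bicdl2l (ENSDARG00000091669), of a family of adaptors that in mammals link cargo to microtubule motors, was at 159, 159 and 149 CPM in the MG columns and 1.78, 1.79 and 1.54 CPM in the C columns at 72hpf. MG was 91.2-fold above C. At 120hpf it was at 59.1, 59.2 and 59.5 CPM in the MG columns and 4.7, 4.75 and 4.77 CPM in the C columns (12.5-fold). At 96hpf MG held 0.41, 0.825 and 1.21 CPM and at 192hpf 1.64, 1.89 and 0.89 CPM, against 1.76, 1.9 and 0.946 CPM and 5.28, 4.57 and 6.23 CPM in C. Of the 27 it had the largest share of the alternation in MG, since the mean of C at 72 and 120hpf differed from that at 96 and 192hpf by 0.02 on the log2 scale and that of MG by 6.48. Its relative BICDL1 was higher in MG at 72hpf (log2 3.48) and 120hpf (1.51) but not lower by 2-fold at 96 or 192hpf (-0.03 and 0.66).

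DOC2A (ENSDARG00000078736), a calcium sensor of vesicle release in neurons, was scarce, at 11.6 and 9.71 CPM in MG against 0.938 and 0.398 CPM in C at 72 and 120hpf. The more abundant DOC2B had the same order of the fractions (log2 2.12, -1.39, 2.95 and -0.26 at 72, 96, 120 and 192hpf). Its differences were smaller than those of DOC2A at 72, 120 and 192hpf (3.63, at least 3.32 and -0.51). At 96hpf, where DOC2A was scarce (1.06 CPM in MG and 1.70 CPM in C), that of DOC2B was not smaller. WWOX (ENSDARG00000007614), an oxidoreductase with protein-binding domains, was at 56.5, 56.4 and 59.2 CPM in the MG columns and 2.46, 2.55 and 2.19 CPM in the C columns at 72hpf (23.9-fold) and 10.8-fold higher in MG at 120hpf. At 96hpf it had 10.3, 9.9 and 17.7 CPM in MG and 12.5, 12.4 and 14.6 CPM in C, and the columns of the fractions overlapped.

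creb3l3b (ENSDARG00000090903), of a family of transcription factors held in the endoplasmic reticulum until cleaved, was at 27.4, 26.6 and 24 CPM in MG at 72hpf and at 0.102, 0.0511 and 0.103 CPM in C, under the floor (at least 33.9-fold). At 120hpf it was at 9.39, 8.08 and 9.08 CPM in MG, at least 9.13-fold above C. DNAJC24 (ENSDARG00000023927), a co-chaperone of diphthamide synthesis, was at 41.2, 40.5 and 35.3 CPM in MG at 120hpf and 4.38, 4.12 and 3.06 CPM in C. At the same stage ttc9b (ENSDARG00000068421), a tetratricopeptide repeat gene, was at 33.9, 33.4 and 41.4 CPM in MG and 2.65, 2.69 and 4.54 CPM in C. They were 10.1-fold and 11.1-fold higher in MG at 120hpf, and at 72hpf DNAJC24 was at least 12.4-fold and ttc9b 7.84-fold higher.

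The remaining genes carry no name that tells a function. Among them zgc:171679 (ENSDARG00000071024) stood out because C varied far more than MG. Its MG columns were at 43.3, 43.2 and 45.7 CPM (72hpf), 29.3, 30.4 and 29.2 CPM (96hpf), 50.7, 49.97 and 54.6 CPM (120hpf) and 17.2, 17.7 and 17.9 CPM (192hpf). Its C columns were at 0.0637, 0.383 and 0.785 CPM, 36.1, 35.7 and 34.5 CPM, 5.05, 4.12 and 5.64 CPM and 49.5, 50.6 and 47.5 CPM in the same order. C was nearly without reads at 72hpf, and the excess of MG there (at least 57.4-fold) came with a low level in C. The same held for ENSDARG00000100357, which was higher in MG at 96 and 192hpf (28 and 33.1 CPM) than at 72hpf (15.8 CPM), and in C at 0.91, 37.4, 2 and 33.3 CPM at 72, 96, 120 and 192hpf.

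By contrast, the long noncoding RNA among the 27, ENSDARG00000093205, was near or under the floor wherever it was not high. It was at 10.4, 11 and 14.1 CPM in MG at 72hpf and 10.7, 10.5 and 10.3 CPM (120hpf), and at 0.204 and 0.872 CPM at 96 and 192hpf, and C did not exceed 2.16 CPM in any of these joined libraries. Likewise ENSDARG00000031534 was at 28, 28.2 and 31.8 CPM in MG at 120hpf and at 0, 0 and 0.17 CPM in C (at least 30.3-fold). The gene si:ch211-284o19.8 (ENSDARG00000053836) was at 34.3, 34.3 and 33.5 CPM in MG at 120hpf and at 0, 0 and 0.0681 CPM in C (at least 35.1-fold). The last, si:ch211-246i5.5 (ENSDARG00000097637), was at 15.6 and 10.7 CPM in MG at 72 and 120hpf, 11.8-fold and at least 11.1-fold above C.

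Since a difference between fractions can lie in either, the change between the pairs of stages (mean log2 CPM at 72 and 120hpf minus that at 96 and 192hpf) was taken in each fraction. Over the 27 genes its median was 3.08 in MG and -2.39 in C. Over the 18978 genes that reached 1 CPM in 3 columns or more it was -1.01 in MG and -1.48 in C. MG was higher at 72 and 120hpf in 26 of 27 genes, with ENSDARG00000100357 as the exception, and C was lower in 26 of 27, with bicdl2l as the exception. The choice used these values, and the share of all genes with each direction was not counted. In 16 genes at least 50% of the alternation lay in MG, led by bicdl2l, SLC6A9 (3.34 in MG and -0.67 in C) and PMPCA (3.08 and -0.68). In 11 it lay more in C, as for zgc:171679 (1.06 and -5.00) and ADAM17 (1.37 and -4.80). Directions in C are shared with genes at large, whose median was also lower at 72 and 120hpf, and CPM are shares of a library, of which photoreceptor markers alone took 264753 and 146452 CPM in MG at 96 and 192hpf. Their part in the change of the 27 genes was not tested.

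**Figure D4:**
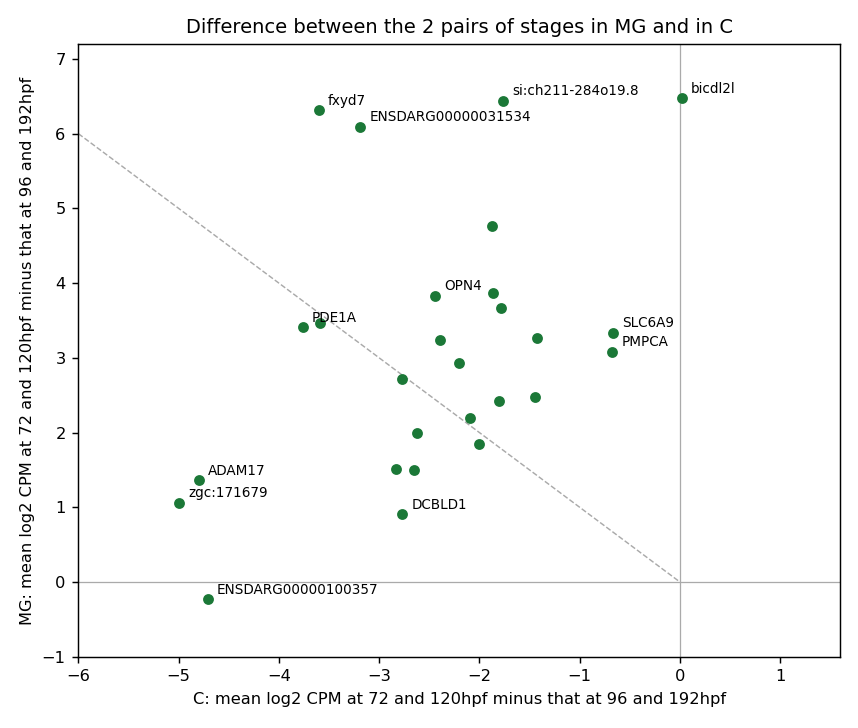
Mean log2 CPM at 72 and 120hpf minus that at 96 and 192hpf, in C (horizontal axis) and in MG (vertical axis), with 1 point for each of the 27 genes. Points above the dashed line (equal and opposite changes) have the larger change in MG, as bicdl2l with 6.48 in MG and 0.02 in C, and points below it in C, as zgc:171679 with 1.06 and -5.00.

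In the joined libraries of the stages that the choice did not use, no gene of the 27 that lay above the floor was at least 2-fold higher in MG. At 48hpf, the start of the series, 22 of the 27 genes were above the floor in replicates 1 and 2. None was at least 2-fold higher in MG (2.81% of 14187 genes were), 9 were at least 2-fold lower (18.3% of genes were), 10 were within 2-fold, 3 (bicdl2l, PDE1A and DOC2A) were under the floor in MG alone with a bound under 2-fold, and 5 were under the floor in both fractions. With TMM scaling, which moved the median of all genes by 0.46 here, 1 was higher and 5 were lower. With replicate 3 of both fractions kept as labelled, 13 were higher and 1 lower. The shares of all genes were not counted under these settings. ARHGEF25 was at 7.31 and 6.29 CPM in MG and 28.8 and 29 CPM in C, 4.26-fold lower in MG (log2 interval -2.73 to -1.46). MAP3K2 was at 2.61 and 2.24 CPM in MG and 9.11 and 9.91 CPM in C (3.93-fold lower), and ttc9b at 8.25 and 6.79 CPM and 28.8 and 29.3 CPM (3.88-fold lower). The others lower by at least 2-fold were npffr1l2, si:ch211-246i5.5, ADAM17, STARD8, DNAJC24 and fxyd7, from 2-fold to 2.95-fold. Of the 9, fxyd7 lay at the limit itself, and fxyd7 and ADAM17 are bounds because MG was under the floor.

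SLC6A9 was already abundant at 48hpf, and lower in MG (95.1 and 96.7 CPM) than in C (153 and 155 CPM) by 1.6-fold, with an interval of the log2 difference from -0.90 to -0.45. PMPCA was at 29.6 and 27.4 CPM in MG and 38 and 33.7 CPM in C, and its interval held 0 (-0.78 to 0.16). The highest of the 27 in MG relative to C was zgc:171679, at 25.6 and 25.7 CPM in MG and 14.8 and 13.6 CPM in C (1.8-fold higher, interval 0.15 to 1.59). OPN4, htr7c, creb3l3b, ENSDARG00000093205 and ENSDARG00000031534 were under the floor in both fractions. PDE1A and bicdl2l, among the highest at 72hpf, were at 0.131 and 0.125 CPM and 1.7 and 1.37 CPM in MG at 48hpf, under the floor as well.

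On the columns, a fit with limma over 18978 genes called 2 of the 27 higher and 8 lower in MG at 48hpf at an adjusted p under 0.05, where 10% of genes were called higher and 23.2% lower. The calls were 5 higher and 6 lower with TMM scaling, 5 and 7 with quantile normalization, 2 and 4 without replicate 1, and 2 and 0 with replicate 3 of 48hpf kept. For these alternatives the shares of all genes were not counted. The lower calls were npffr1l2, STARD8, si:ch211-246i5.5, MAP3K2, SLC6A9, PDE1A, OPN4 and ttc9b, and their largest adjusted p was 0.0441 (OPN4, limma). Of these, OPN4 lay under the floor in both fractions (0.14 CPM in MG and 1.90 CPM in C). PDE1A lay under it in MG (0.127 CPM) and just above it in C (2.38 CPM). The higher calls were htr7c and ENSDARG00000031534, which had no read in C and lay under the floor in MG (0.36 and 1.43 CPM). Both thus rest on the prior added to 0 reads. ARHGEF25, DNAJC24, ADAM17 and fxyd7, at least 2-fold lower in the joined libraries, were not called. The fit gives each gene 1 spread over all groups. In the shallow 60hpf MG their standard deviations were 4.20, 4.78, 5.14 and 4.78 on the log2 scale. The part of this spread in the missing calls was not tested. MG and C were 1 library each at this stage, and the p-values compare these libraries. In columns simulated for this stage, most calls of the fit were of unchanged genes.

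At 60hpf MG was too shallow for most of the genes. Only SLC6A9 and PMPCA lay above the floor in either fraction, PMPCA in C alone, and neither was called 2-fold apart (8.74% of 5468 genes were higher in MG and 29.7% lower). SLC6A9 was at 176, 252 and 149 CPM in MG and 187, 189 and 178 CPM in C, with a log2 difference of 0.01 and an interval of -0.80 to 0.77. This interval does not reach the difference at 72 or 120hpf. PMPCA had 30.3, 7.88 and 0 CPM in MG and 49.6, 48.2 and 48.4 CPM in C. Its interval ran from -7.25 to 0.54, so that a level 2-fold lower in MG could not be told from none. The upper limit lay under a 2-fold excess in MG and under the log2 differences at 72 and 120hpf (3.26 and 3.19). The other 25 genes were at or under 25.8 CPM in C and 16.9 CPM in MG, under the floor in both, so that none could be called. No counting interval of these genes excluded equality, but most upper limits lay below the log2 difference at 72hpf. The lowest were 1.17 for ENSDARG00000100357 (4.11 at 72hpf), 1.18 for SRMS (at least 4.17), 1.47 for ADAM17 (4.44) and 1.52 for ttc9b (2.97). For PDE1A (2.94 against at least 7.13) and MAP3K2 (3.45 against 5.75) the limit was also below that difference. For others, as ARHGAP24 (3.44 against 3.06), the limit lay above it. The limma fit on columns called 1 higher (MAP3K2) and 23 lower, beside 8.74% and 76% of all genes. These calls compare columns of unequal depth, in which a gene without a read in MG is given a value far under what the column can show.

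**Figure D5:**
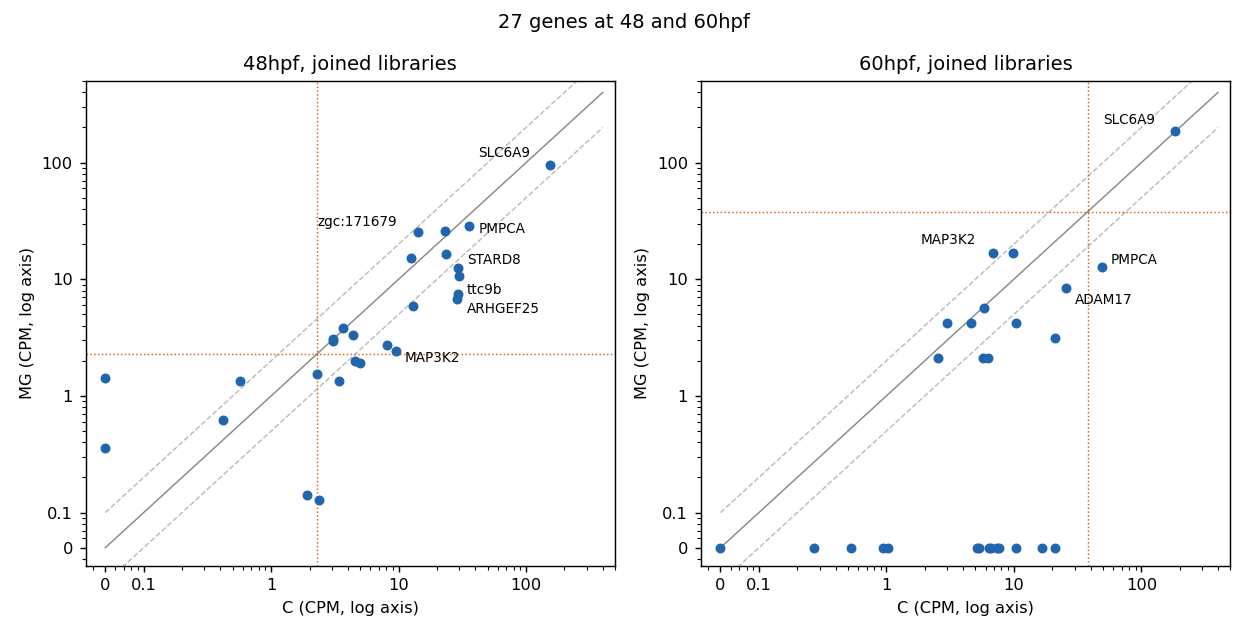
CPM in MG (vertical, log axis) against CPM in C (horizontal, log axis) of the 27 genes in the joined libraries of 48hpf (replicates 1 and 2) and 60hpf, with 0 drawn at the edge. The full line marks equality, dashed lines 2-fold and dotted lines the floor of 3 reads (2.28 and 38.0 CPM), and no gene above the floor lies over the upper dashed line.

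The threshold cut through a continuum. Just inside were ENSDARG00000100357 (mean MG minus C of -0.013 at 192hpf), ttc9b (3.01 at 72hpf) and SRMS (-0.015 at 192hpf). Just outside were prss59.2 (0 at 192hpf), a trypsin-like gene, USP43 (0.0038 at 192hpf), a ubiquitin protease, and PLCD1 (2.98 at 72hpf), a phospholipase. Scaling by TMM moved the median MG minus C of all genes by -0.18, 0.44, 0.15 and 0.35 at 72, 96, 120 and 192hpf. Under it 13 genes met the rule, of which 10 were among the 27 (ENSDARG00000093205, ARHGEF25, STARD8, DOC2A, si:ch211-284o19.8, PDE1A, fxyd7, ADAM17, OPN4 and bicdl2l). All 27 stayed above 0 at 72 and 120hpf, with 23 of them still at 3 or more at 72hpf, while 8 were at or above 0 at 96hpf and 10 at 192hpf. SLC6A9 was at 0.11 at 96hpf and -0.45 at 192hpf under TMM, and PMPCA at -0.28 and 0.03, so that the order of the fractions in the most abundant genes turned at 1 of these stages with the scaling.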

How the data were processed

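Per the study's methods and the submitters' processing notes, reads were trimmed (Trimmomatic), aligned (HISAT2) and counted for Ensembl genes by featureCounts, with later steps in R (edgeR, DESeq2 and limma). The build is given as GRCz10 in the notes and as Zv9 in the paper, and no coordinates are printed. The authors deposited CPM on the log2 scale for 31540 genes and 36 columns. As the values show, a prior of 0.25 read was added, every column was scaled by its total, and TMM factors were not applied. Reads were recovered by undoing these steps, in units of 0.01 read. Part reads, present for members in 0 (bicdl2l) to 33 (CDH22) of the 36 columns, leave near-identical paralogs uncertain. Whether counting used the strand is not given in the sources used here.

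The rule was applied to the means of the 3 columns of each group. The 27 members and all gene lists were chosen with earlier results of these data known. Symbols came from an identifier table (25 of 27 matched), where symbols in capitals lack the zebrafish paralog letter, so that OPN4 and ADAM17 each stand for more than 1 identifier. In the RefSeq table of another build (GRCz12tu), 21 members were found by symbol, 20 as protein coding and 1 as long noncoding RNA, on 12 chromosomes, and it was used for names and neighbours. Promoter and protein sequences were not used here.

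Columns were compared by a chi-square of reads over the genes reaching 20 reads in both together. They were joined into 1 library per group by dividing their summed reads by their summed library sizes. Levels under 3 reads of the shallower library were set to that floor, genes at least 2-fold apart were called, and 95% intervals of the ratio are exact (Clopper-Pearson) on the mean reads of the columns, which are neither independent molecules nor separate libraries. limma 3.58.1 in R 4.3.3 (12 group means, eBayes with a trend, Benjamini-Hochberg) was fitted to the deposited log2 values of the 18978 genes that reached 1 CPM in 3 columns or more, with replicate 3 of 48hpf left out. Nothing says that replicates came from separate pools of eyes. Steps were tested on simulated data, where limma called 72.5% of changed and 2.06% of unchanged genes. Few genes had been changed, so that most of these calls were of unchanged genes. The adjusted p thus did not hold false calls to the share it names. The rest was done in Python 3.11.15 (pandas 2.3.3, numpy 2.4.6, scipy 1.17.1, matplotlib 3.10.9). TMM factors came from these reads, with trims of 0.3 and 0.05. Alternatives were other scalings, pseudocounts, filters, floors and folds, a replicate block and leaving out replicates.

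By the rule for named genes, the text names the members with the highest MG level, the largest difference at 72 and 120hpf and the highest and lowest differences at 48hpf, those above the floor at 60hpf, on a marker list or at least 4-fold lower at 96 and 192hpf, and the 3 genes on each side of the threshold. The other members, their paralogs and single cell type markers were named after their values were seen.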

Additional observations from a re-analysis of the deposited data

Results flagged for a closer look

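One column outside the main 48hpf comparison carried the pattern. In the MG column labelled replicate 3 of 48hpf, 16 of the 27 genes were at least 2-fold above every 48hpf C column, and 21 were at least 2-fold above MG replicates 1 and 2, beside 23.7% and 29.4% of the 18978 genes that reached 1 CPM in 3 columns or more. SLC6A9 was at 1152 CPM there and at 95.1 and 96.7 CPM in the others. bicdl2l was at 164.7 CPM against 1.70 and 1.37 CPM, and PDE1A at 108.3 CPM against 0.131 and 0.125 CPM. The levels of the 27 genes in this column lay within -0.33 and 0.35 on the log2 scale of the mean of 72hpf MG, with a median absolute difference of 0.0779. Since the column matched 72hpf MG, by which the genes were chosen, these counts repeat that choice. It was singled out because it shows a signal above the controls in a column left out of the main 48hpf comparison.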

How the results depend on the processing

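The number of genes that meet the rule was 13 instead of 27 with TMM factors, 13 with a pseudocount of 1 CPM and 7 where MG minus C had to be below -1 at 96 and 192hpf, and it ranged from 22 to 26 with a replicate number left out (20, 22 and 24 of them among the 27). ENSDARG00000093205 and ARHGEF25 were kept under all 8 settings, which do not use the floor of 3 reads. ENSDARG00000093205 lay under that floor in both fractions at 96hpf. Its counting interval of the log2 difference held equality at 96hpf (-5.70 to 3.65) and 192hpf (-3.29 to 0.52). Being kept therefore does not show that this gene was lower in MG at these stages. For ARHGEF25 both intervals lay below equality (-2.46 to -0.68 and -2.96 to -1.67). The median MG minus C of the 27 genes was 3.95, -0.49 and -0.29 with TMM at 72, 96 and 192hpf, instead of 4.16, -0.93 and -0.65, and it ranged from 3.90 to 4.17 and from -1.06 to -0.64 at 72 and 96hpf with a replicate number left out.

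At 48hpf the 9 genes 2-fold apart became 4 with a floor of 10 reads and 1 at a fold of 4. With replicate 3 kept as labelled 14 were called, 13 of them higher in MG, and MAP3K2, fxyd7 and ADAM17 turned to 2.4, 0.49 and 1.14 on the log2 scale. The 10 calls of limma at 48hpf became 2 with these columns kept and ranged from 6 to 14 with a replicate number left out, and the 24 at 60hpf from 16 to 22. Leaving out replicate 3 has no value of its own for the joined 48hpf libraries, which already lack it. Of 110 values of single genes under the alternatives that can move them, 91 stayed within the counting interval, 16 moved out of it and 3 that had been at least 2-fold apart turned, the ones just named. Shares of all genes under the alternatives were not counted, and the cause of these changes was not tested.

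Same-numbered replicates did not deviate together (correlations from -0.19 to 0.03 in 18 pairs, 0 of them over 0.1). Since most columns of a group differ by read sampling only, these correlations cannot show whether the numbers pair the samples. The fit with a replicate block gave the same counts, 10 at 48hpf and 24 at 60hpf. At the depth of 60hpf MG, 25 of the 27 genes lay under the floor in both fractions and could not be called.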
